A study of Drosophila melanogaster with 8 samples.

Results

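The lysozyme gene cluster of Drosophila melanogaster was read in RNA-seq libraries of whole larvae lacking Lactate Dehydrogenase (Ldh). Its 7 annotated genes, LysB, LysC, LysD, LysE, LysP, LysS and LysX, were found by FlyBase identifier among the 17445 features of the count tables. They were chosen by family name and place, and by the read count of LysC, which was known to be among the highest of the table. That count is therefore given as a description with no test. Ldh mutants carried the genotype w[1118]; Ldh[16/17], a combination of 2 mutant Ldh alleles, and controls were labelled w[1118]; Ldh[precise]. The paper describes heterozygous controls for its RNA-seq of Ldh mutants, so what the controls carried at Ldh is not settled, and the groups here follow the labels. Both groups were labelled w[1118], and each had 4 libraries, numbered 1, 2, 3 and 6 in mutants and 1, 2, 5 and 6 in controls. Each library was made from 25 larvae at the middle of the second instar, after 60 hours at 25 °C. The paper describes biological replicates for its RNA-seq, but fewer per genotype and with fewer larvae each than these labels give. The labels do not say whether libraries of a group came from separate cultures, so p-values measure the spread between these libraries, which may be partly technical.

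Lysozymes are secreted enzymes that cut the sugar chains of peptidoglycan in bacterial cell walls. Fly larvae feed on microbes in decaying fruit, and the genes of this cluster encode c-type (chicken-type) lysozymes that are known mainly as products of the digestive tract rather than as genes induced by infection. LysB, LysD and LysE are known from the midgut, LysS from the gastric caeca, LysP from the salivary gland of the adult, and LysX from the gut around metamorphosis. LysC is annotated as a pseudogene.

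The cluster lies on chromosome arm 3L, where its members span 33500 bases of the BDGP6 assembly. From the low to the high end the order was LysX (FBgn0004431; 1194739 to 1195302, minus strand), LysB (FBgn0004425; 1207371 to 1207981, plus), LysC (FBgn0004426; 1210485 to 1210726, plus), LysD (FBgn0004427; 1210717 to 1211196, minus), LysE (FBgn0004428; 1212827 to 1213406, plus), LysP (FBgn0004429; 1218082 to 1218696, minus) and LysS (FBgn0004430; 1227747 to 1228238, plus). The 6 protein-coding members are single-exon genes with a coding part of 420 bases in LysB, LysD, LysE and LysS, 423 in LysP and 426 in LysX. All members except LysX lie inside the span of mwh (1200786 to 1232700, plus strand), and none of them overlaps an mwh exon. LysD and LysP, on the minus strand, thus lie opposite mwh introns. LysC and LysD are the only members whose exons overlap an exon on the other strand, and they overlap each other. They share 10 bases (1210717 to 1210726), which are the last bases of both genes, since the 2 genes point towards each other. The shared bases make up 4.13% of the LysC exon and fall in the 41 bases of the LysD exon that follow its annotated coding part.

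**Figure D1:**
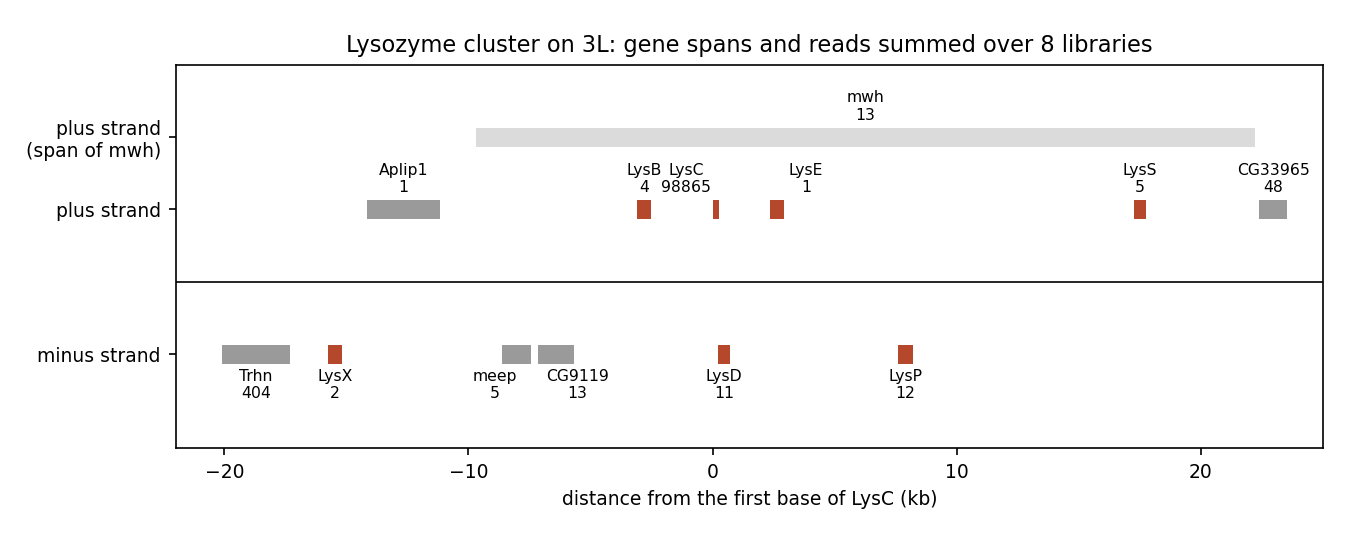
Gene spans of the lysozyme cluster by strand, plotted as distance from the first base of LysC in kb, with lysozyme genes in red and other genes in grey. The number under each symbol is its reads summed over all 8 libraries: LysC had 98865, and the other lysozyme genes had 1 to 12.

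Reads assigned to features numbered 371700 to 560865 per library, 1.24% to 1.62% of all counts in a file. Uniquely aligned reads numbered 19890346 to 27851568 per library, and 97.8% to 98.1% of them fell in no feature. Ldh, the mutated gene, had 0 reads in each mutant library and 4, 3, 5 and 1 reads in control replicates 1, 2, 5 and 6. Of the tissue lists, 8 of 8 body wall muscle markers passed the expression filter, against 2 of 4 hemocyte markers and none of the 6 fat body, 6 cuticle or 35 midgut digestive enzyme genes, and no marker was called. Summed marker levels overlapped between the groups in each of these lists. Whether reads were counted by strand is not given in the sources used here. From the labels it can therefore not be told which of 2 genes on opposite strands gave a read that falls in both. Features with 50 or more exon bases opposite another gene held 87.3% of the reads of placed features, and features with 0 such bases 5.43%. Whether reads were counted on the strand opposite their gene was not tested. A count given for a feature may therefore hold RNA from the other strand. The annotation used here may also differ from the one used for the counting.

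Nearly all lysozyme reads were assigned to LysC. It had 10153, 12502, 14477 and 11804 reads in mutant replicates 1, 2, 3 and 6, against 14339, 11763, 15293 and 8534 reads in control replicates 1, 2, 5 and 6. LysC thus held 99.965% of the reads of the 7 members and 2.72% of all reads assigned to features. Only asRNA:CR44095, with 439 exon bases opposite Cys, and asRNA:CR45874, with 600 opposite RpS9 and a snoRNA gene, had more reads over the 8 libraries. LysC ranked 3 by reads in 7 libraries and 4 in mutant replicate 1. Per length it ranked first, with 408530 reads per kb of exon over the 8 libraries, 1.48 times the next feature.

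LysC did not differ between the genotypes beyond the spread of the libraries. Scaled by library size to CPM, it had 24437, 25033, 30212 and 26035 CPM in mutant replicates 1, 2, 3 and 6. In control replicates 1, 2, 5 and 6 it had 35941, 27675, 26440 and 22302 CPM. The groups overlapped fully, since the highest and the lowest library were both controls. The means were 26429 ± 2607 CPM in mutants and 28090 ± 5716 CPM in controls (SD, n = 4 each). The log2 fold change of mutant over control was -0.09 (SE 0.12, 95% interval -0.35 to 0.18), which did not pass the quasi-likelihood test of edgeR, with an adjusted p of 0.83. An exact permutation test over libraries gave a two-sided p of 0.686, where 0.0286 is the smallest this design allows. In whole larvae, fewer cells of a type and less RNA per cell cannot be told apart.

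**Figure D2:**
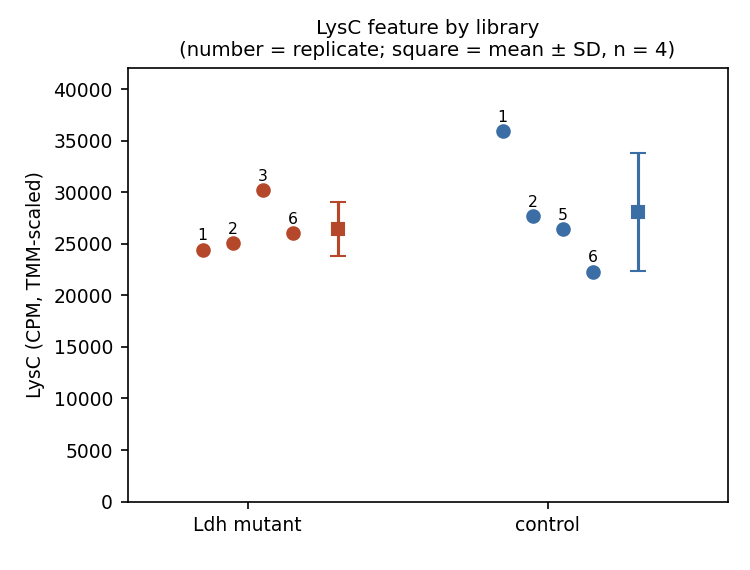
LysC in CPM, scaled by TMM (trimmed mean of M values), in each library, with Ldh mutants in red and controls in blue. Circles are libraries with their replicate number and squares are means with SD (n = 4): the mutants lay between 24437 and 30212 CPM, inside the control range of 22302 to 35941 CPM.

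LysC varied between libraries by more than its counting error, with an SD of 9.86% of the mean in mutants and 20.4% in controls, against a counting error of 1.08% in its shallowest library. LysC took 2.38%, 2.52%, 2.90% and 2.58% of the assigned reads in mutant replicates 1, 2, 3 and 6, and 3.57%, 2.82%, 2.73% and 2.30% in control replicates 1, 2, 5 and 6. The 95% binomial intervals (Clopper-Pearson) of single libraries were narrow, 3.51% to 3.62% in control replicate 1 and 2.25% to 2.34% in control replicate 6. Such intervals cover counting error only. Among the 50 most counted features that were tested, the SD of log2 CPM of LysC ranked second among controls, at 0.28 against a median of 0.093, and 24th among mutants, at 0.14 against a median of 0.14. The control with the most LysC, replicate 1, had the smallest share of alignments that were not unique (21.2% of its counts). The control with the least LysC, replicate 6, had the largest (33.7%). Mutant replicate 2, at 32.0%, had a level of LysC between those of the other mutants. Whether this share has a part in the level of LysC was not tested.

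The direction of the small difference in LysC rested on 1 library. Without control replicate 1 the log2 fold change was 0.05, with an SE of 0.10 and an adjusted p of 0.889 in edgeR, and it was negative with each of the other 7 libraries left out, at -0.18 to -0.04. Over 20 alternative scalings, filters, tools and sets of libraries the adjusted p of LysC ranged from 0.415 to 0.98. Among the 50 most counted tested features, 8 were called, 6 higher and 2 lower in mutants, and LysC ranked 33rd by the size of its log2 fold change. Over all 2589 tested features, 82 or 3.17% were called.

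**Figure D3:**
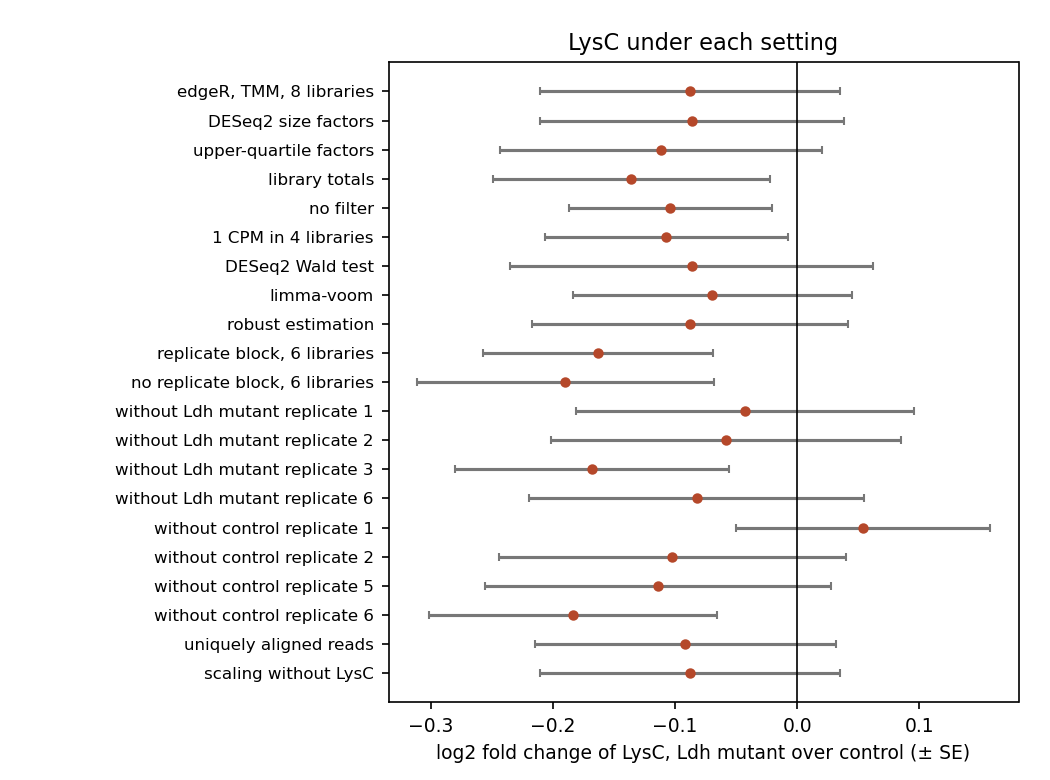
Log2 fold change of LysC, Ldh mutant over control, with SE, under the reported fit (top) and 20 alternative settings. All points lie between -0.19 and 0.05, and the point without control replicate 1 is the one above 0.

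The 6 protein-coding lysozyme genes were almost unread. Together they had 19 reads in mutants and 16 in controls, 1 to 7 per library, and all 6 lay below the expression filter. LysD, whose end overlaps LysC, had 1, 2, 1 and 1 reads in mutant replicates 1, 2, 3 and 6, against 4, 0, 2 and 0 reads in control replicates 1, 2, 5 and 6. LysC had 8988 times as many reads as LysD over the 8 libraries. LysP was the one coding member with a read in every library, with 1, 1, 1 and 3 reads in mutants and 1, 1, 2 and 2 in controls.

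LysS had 1, 0, 1 and 2 reads in mutant replicates 1, 2, 3 and 6, and 0, 0, 0 and 1 in control replicates 1, 2, 5 and 6. LysB had 1 read in mutant replicate 1 and none in the other mutants, against 2, 0, 1 and 0 reads in controls. LysX had 1 read in each of mutant replicates 2 and 6 and LysE had 1 read in mutant replicate 3. Neither LysX nor LysE had a read in a control library, which allows up to 3 reads over the group, or 1.71 CPM. No coding member separated the groups.

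**Figure D4:**
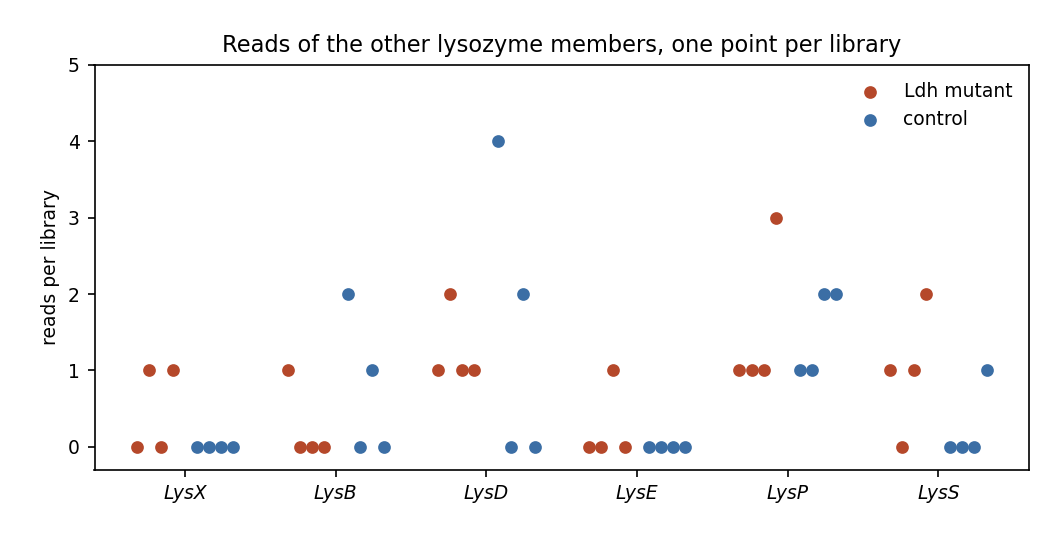
Reads per library of the 6 coding lysozyme genes, in their order along the chromosome, 1 point per library, with Ldh mutants in red at the left of each gene and controls in blue at the right. No library has more than 4 reads of any of these genes, and the groups overlap in all 6.

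Differences in these 6 genes were not detectable with so few assigned reads. The ratio of mutant to control reads, corrected for library totals, was 0.777 for LysD (exact 95% interval 0.188 to 3.06), 0.932 for LysP (0.249 to 3.49), 3.73 for LysS (0.369 to 184) and 0.311 for LysB (0.00592 to 3.87). For the 6 genes summed it was 1.11 (0.539 to 2.30). No fold is given for LysX and LysE, which had no read in a control library. Like them, LysB was at or under 3 reads in both groups. Exact two-sided permutation tests of log2(CPM + 1) gave p = 0.629 for LysD, 0.743 for LysP, 0.371 for LysS, 0.714 for LysB, 0.429 for LysX and 1 for LysE. LysC, the 1 member above the filter, was not called by edgeR, DESeq2 or limma-voom and had no unadjusted p under 0.05 in them, and the 6 coding members were not tested in these fits. Thus 0 of the 7 members were called. Over all features 82 of 2589, or 3.17%, were called, and the groups did not overlap in 9.54% of tested features. They overlapped in LysC and in each of the 6 coding members. Those 6 were not among the tested features, and with so few reads could hardly have separated the groups. In the edgeR fit without a filter, in which all 7 members were tested, their adjusted p ranged from 0.709 to 0.99.

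Levels were ordered per kb of exon. LysC stood at 109210 CPM per kb in mutants and 116070 CPM per kb in controls, and LysD came next at 5.58 CPM per kb in mutants and 7.02 in controls, with LysP at 5.33 and 5.51. In mutants these were followed by LysS (4.52 CPM per kb), LysX (1.87), LysB (0.985) and LysE (0.90), and in controls by LysB (2.76) and LysS (1.33). The 6 coding genes rest on 1 to 12 reads each. Among them, within each group, no gap between neighbours in this order exceeded the larger SD of the pair. Genes further apart in the order were not compared. The members of such a family can also share reads with each other where their sequences are alike, and reads with no unique alignment were not assigned to any feature.

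The read count of LysC was set against features with the same kind of neighbour. Of 17151 features placed in the annotation, 12670 had no exon base opposite another gene and a median of 1 read over the 8 libraries. Another 1024 had 1 to 49 such bases and a median of 25 reads. The remaining 3457 had 50 or more and a median of 107 reads. In that order, the classes held 5.43%, 7.27% and 87.3% of the reads of placed features, and 408, 287 and 1855 features passed the filter. LysC, with 10 opposite bases, had the most reads of the class with 1 to 49. It had 5.08 times the reads of the next feature, clos, which shares 37 bases with the ribosomal protein gene RpL31, and it held 37.6% of the reads of that class. Next in the class were baz (3 bases opposite TTLL1A), BHD (43 bases opposite RpL18) and Dgkepsilon (32 bases opposite Nacalpha), with 9055, 7874 and 4806 reads. They were followed by CG17272 (44 bases opposite RpS20), CG34125 (33 bases opposite eIF3i) and CG13202 (15 bases opposite the trypsin gene deltaTry), with 4155, 3387 and 2766 reads. Exactly 10 opposite bases were found in 41 features, of which the others had at most 1844 reads and a median of 25. LysC also stood first among the 311 pseudogenes in the files, with 96.97% of their reads. The next, CR18275, had 927 reads. These comparisons were made after the values were seen.

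**Figure D5:**
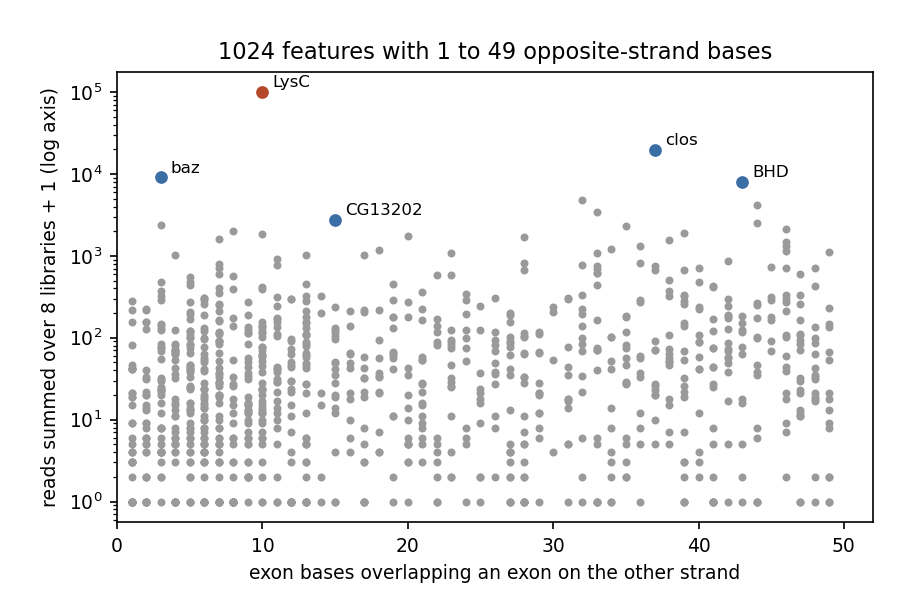
Reads summed over 8 libraries (plus 1, log axis) against the number of exon bases shared with a gene of the opposite strand, for the 1024 features with 1 to 49 such bases. LysC, in red at 10 bases and 98865 reads, lies above the others, and the labelled features in blue are clos, baz, BHD and CG13202.

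Apart from Trhn, the genes around the members were below the expression filter. Between the ends of the cluster lie Aplip1, mwh, meep and CG9119, with 1, 13, 5 and 13 reads over the 8 libraries. mwh, which encodes a regulator of wing hair number, had 7 reads in mutants and 6 in controls although it spans LysC. At the low end Trhn, a tryptophan hydroxylase gene, had 49 to 61 reads in a mutant library, against 26 to 57 in a control library. Its log2 fold change was 0.33, with an SE of 0.18 and an adjusted p of 0.435 in edgeR. Trhn shares 89 exon bases with CG13912 on the other strand, while the other genes around the members have no exon base opposite another gene. At the high end CG33965 had 1, 3, 25 and 10 reads in mutant replicates 1, 2, 3 and 6, against 3, 1, 3 and 2 reads in control replicates 1, 2, 5 and 6 (exact permutation p = 0.257). Most of its mutant reads were in replicate 3. No gene beside LysC had a count near that of LysC.

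The features whose level was most like that of LysC across the 8 libraries lay on other chromosome arms. By Pearson correlation of log2 CPM they were Shark (r = 0.933), Cyp4aa1 (0.916), RpL3 (0.915), CG32815 (0.887) and mRpS23 (0.853). The correlations of the deviations from the group means were 0.967, 0.921, 0.918, 0.929 and 0.848 in the same order. Shark encodes a tyrosine kinase, Cyp4aa1 a cytochrome P450, RpL3 a protein of the cytosolic ribosome and mRpS23 one of the mitochondrial ribosome. Each has a gene on its other strand, as do most features that passed the filter. Of those placed in the annotation, 1855 had 50 or more opposite-strand exon bases, 287 had 1 to 49 and 408 had none. The features named here were not called, and Shark and RpL3 rest on 12 to 30 reads per library. The r values are the highest of all tested features over 8 libraries that share their depth and scaling, and are a description.

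Lysozyme-like genes elsewhere in the genome also had few reads, at most 47 in any of them. Of 6 c-type genes outside the cluster and 5 i-type (destabilase-like) genes, none passed the filter. The c-type genes had 2 to 10 reads each over all libraries, the most in CG7798, with 3 in mutants and 7 in controls. Of the i-type genes, CG6421, CG6426 and CG6429 had no reads, and CG6435 had 14 reads in mutants and 33 in controls (exact permutation p = 0.0571). LysRS, which shares the symbol's opening but encodes the lysyl-tRNA synthetase and is no lysozyme, had 11 reads in mutants and 14 in controls (exact permutation p = 0.914). CG14823 had 2, 1, 7 and 3 reads in mutant replicates 1, 2, 3 and 6 and 3, 1, 2 and 1 reads in control replicates 1, 2, 5 and 6.

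A difference between the genotypes was seen in the counts of a feature that lies opposite CG14823. The feature CG32391 (FBgn0052391; 3L, 7068211 to 7069199, minus strand) has all 766 of its exon bases opposite exons of that gene, and was looked at after its values were seen. It had 6, 13, 25 and 12 reads in mutant replicates 1, 2, 3 and 6, against 26, 34, 58 and 32 reads in control replicates 1, 2, 5 and 6. In CPM the groups did not overlap, as in 9.54% of all tested features. Levels were 29.8 ± 15.9 CPM in mutants and 82.3 ± 14.4 CPM in controls (SD, n = 4 each). The log2 fold change of CG32391 was -1.45, with an SE of 0.29 and an adjusted p of 0.0105 in edgeR. The call held in 19 of 20 alternative settings and ended without control replicate 5 (-1.33, with an adjusted p of 0.0793 in edgeR). Whether its reads came from CG32391 or from CG14823 depends on the strand of the counting. Ldh also lies on 3L, and whether linkage to Ldh has a part in this difference was not tested. The antisense feature opposite the c-type gene CG7798, asRNA:CR43898, had 113 ± 31.4 CPM in mutants and 124 ± 17.8 CPM in controls (SD, n = 4 each), and its log2 fold change of -0.13 had an SE of 0.20 and an adjusted p of 0.843 in edgeR.

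Other genes of the gut and of its defence were read only in part. None of 35 midgut digestive enzyme genes passed the filter. The protease genes Jon99Ciii, Jon65Aiv and Jon25Biii had 28, 19 and 18 reads in mutants and 6, 9 and 6 reads in controls, and none of the 3 separated the groups. Mutant replicate 3 held 12, 12 and 14 of these reads, and the other mutants together had 16, 7 and 4. The feature CG13202, which shares 15 exon bases with the trypsin gene deltaTry on the other strand, had 693 ± 204 CPM in mutants and 832 ± 56.2 CPM in controls (SD, n = 4 each), while deltaTry had no reads. The log2 fold change of CG13202 was -0.26, with an SE of 0.17 and an adjusted p of 0.541 in edgeR. Of 13 antimicrobial peptide genes, 1 was tested and none was called. That gene, AttB, had 94 reads in mutants and 91 in controls and a log2 fold change of 0.0034, with an SE of 0.22 and an adjusted p of 0.996 in edgeR. A further 8 had no reads. Of 14 genes of the Imd pathway, the main antibacterial signalling route of the fly gut, 1 was tested and none was called. It was imd itself, with 411 reads in mutants and 304 in controls. Its log2 fold change of 0.40 had an SE of 0.14 and an adjusted p of 0.167 in edgeR. The CPM of the groups did not overlap, as in 9.54% of all tested features. The exact permutation p of 0.0286 is the smallest this design allows. GstE9 shares 40 bases with imd on the other strand. The median log2 fold change over all 2589 tested features was 0.0082.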

How the data were processed

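The deposited files hold raw read counts per FlyBase identifier, which the authors had not normalized, and each file is 1 library. Tools named in the submitters' processing notes are HTSeq 0.6.1p1, DESeq2, TopHat2 2.0.13, Trimmomatic 0.32 and Bowtie2 2.2.4. Genome build, annotation, library kit and strand setting for these files are not given in the sources used here. The 5 lines per file that name no gene, which held 98.4% to 98.8% of all counts in a file, were left out. Positions and exon overlaps came from BDGP6, Ensembl release 115.

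All 17445 features were fitted together in edgeR 4.0.16 under R 4.3.3, by its quasi-likelihood test (filterByExpr, TMM, no covariates). The Benjamini-Hochberg adjustment ran over the 2589 features tested, and an adjusted p under 0.05 was a call. An exact permutation test over libraries was used for features under the filter, on log2(CPM + 1), and ratios of reads carry exact 95% intervals that cover counting error only. The pipeline was tested on simulated data. The members and gene lists were chosen with earlier results of these data known. Of 100 listed names, 3 were not matched. Named were all members, genes whose symbol is Lys and a capital letter, opposite-strand genes sharing 50 bases or more with a member, genes between and next to the cluster's ends, the 5 features most like LysC, and the called or 2 to 4 most counted members of a list, the marker lists being given as counts. Other opposite-strand features were named after their values were seen. Alternatives were DESeq2 1.42.0, limma 3.58.1 (voom), other scalings and filters, robust estimation, the replicate block and leaving out each library. Scaling by uniquely aligned reads and without LysC were added after seeing the data. Promoter motifs and unique sequence windows were not analysed here.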

Additional observations from a re-analysis of the deposited data

Results flagged for a closer look

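Of 38 sets of 4 values looked at, 10 had a library that stood apart from the other 3 of its group, where chance would give about 1.9 if values were normally spread. Of these, 5 were lysozyme genes with very few reads. LysB had 2.407 CPM in mutant replicate 1 and LysE had 2.087 CPM in mutant replicate 3, each from 1 read against 0 in the other mutants. LysS had 2.613 CPM in control replicate 6, again 1 read against 0. LysD had 4.005 CPM in mutant replicate 2 (2 reads against 1), and LysP had 6.617 CPM in mutant replicate 6 (3 reads against 1). LysC was not among them.

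Among the neighbouring genes, mwh had 8.009 CPM in mutant replicate 2 and 5.187 CPM in control replicate 5, and Aplip1 had 2.353 CPM, a single read, in control replicate 2. Control replicate 5 had a read in 8016 features, where the other controls had one in 7113 to 7209. It also had the most assigned reads of the controls, 560865 against 371700 to 417548. Mutant replicate 3, which was not flagged, had a read in 8217 features. Control replicate 6, with the lowest LysC level, had 1.24% of its lines assigned against 1.53% to 1.57%.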

How the results depend on the processing

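Of the lysozyme members, 0 were called in the reported fit and in every alternative run, most of which tested LysC alone. The edgeR fits with looser filters tested 4 and 7 members, none with an unadjusted p under 0.05. The log2 fold change of LysC turned positive without control replicate 1 (0.0539) and stayed negative in the other 19 alternatives. Leaving out each library gave -0.184 to 0.0539. The difference in summed CPM of the 7 members was -1659 (26439 CPM in mutants and 28099 in controls) and -3574 to 975 without single libraries, less than 1 SD of the controls from the reported value. The count of features called was 82, and 57 to 168 without single libraries, the most without mutant replicate 3. It was 184 without a filter, of which 77 were among the 82, and 104 with library totals (38 higher and 66 lower, against 40 and 42). For CG32391 the log2 fold change was -1.33 without control replicate 5, which ended its call. Same-numbered libraries did not deviate together (correlations of -0.11, 0.0085 and -0.038). With the replicate block on the 6 libraries numbered 1, 2 and 6, 138 features were called, and 118 on those libraries without the block. LysC was then at -0.16 and -0.19 and not called. The causes of these shifts were not tested. With at most 12 reads in any coding member, changes in those 6 genes were not detectable here.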
